A study of Simmondsia chinensis with 44 samples.

Results

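The genes described here were highest in early jojoba seed and, among the dissected parts of mid-stage seed, highest in the embryonic axis. They are 138 of the 23491 genes counted, and they were selected by measured levels in the deposited normalized tables. With 1 added to each group mean, a gene had to reach 20 and at least 2 times every other stage in early seed, and 20 and at least 2 times both cotyledon and seed coat in axis. The limit of 200 genes was not reached. Early seed against each other stage, and axis against cotyledon and coat, are therefore given as a description with no test.

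Jojoba (Simmondsia chinensis) RNA was sequenced in 44 libraries, all from a single germplasm line. The 24 libraries of a time course comprised 6 of each stage, early, mid, late and dry. The 20 libraries of a dissection at the mid stage comprised 5 each of whole seed, seed coat, cotyledon and embryonic axis. The labels give no days after pollination, name no treatment, and leave it unstated whether seeds of the time course kept their coat and whether libraries of a group came from separate plants. The p-values therefore measure only a spread between libraries that may be technical.

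The embryonic axis is the part of the embryo that gives the seedling its root and its first shoot. Cotyledons are the seed leaves, where jojoba stores its reserve mainly as liquid wax esters, and the seed coat is maternal tissue. In seed plants generally, tissues are laid down by cell division early in seed development, reserves are filled in afterwards, and the seed then dries. The files do not pair gene identifiers with names or functions, so no role can be given for any member, marker genes could not be used to check the dissections, and members are named by identifier only.

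Total counts ranged from 7713214 to 13593412 in early seed, from 10298519 to 16014089 over the mid and late stages and from 15658880 to 23773845 in dry seed. The dissected tissues ranged from 9882334 to 32758764. Levels are in CPM, a count relative to its library total, with each total adjusted by TMM, a scaling that sets aside genes with extreme ratios. The series were scaled separately, so levels are compared only within a series. Late-seed libraries 4 and 6 were nearest to the dry-seed mean among the late-seed libraries, at a root-mean-square log2 distance of 1.87 and 1.88 against 1.96 to 1.99 for the others. Cotyledon libraries 1 and 5 were nearest to the whole-seed mean, at 0.657 and 0.797 against 0.855 to 1.04. Seed coat library 3 stood apart from the other coat libraries for the members, as described below. Counts of members called in comparisons of these groups are given with and without these libraries.

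Most members were low in abundance even where they peaked. In early seed the median member stood at 7.88 CPM, the quartiles were 3.16 and 23.7 CPM, and the range was 1.40 to 1985 CPM. In axis the median was 10.6 CPM, with a range of 1.05 to 693 CPM. The median was 1.90 CPM in mid, 0.527 in late and 0.135 in dry seed, and 0.985 CPM in cotyledon, 1.10 in seed coat and 1.31 in whole seed. At 10 CPM or more there were 62 members in early seed, 26 in mid, 10 in late and 4 in dry seed, and 72 in axis against 14 in cotyledon and 14 in coat. These differences between early seed and later stages, and between axis and the other parts, are what the members were chosen on. In bulk seed RNA, fewer cells of a type and less RNA per cell cannot be told apart, and this holds for every comparison below.

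**Figure D1:**
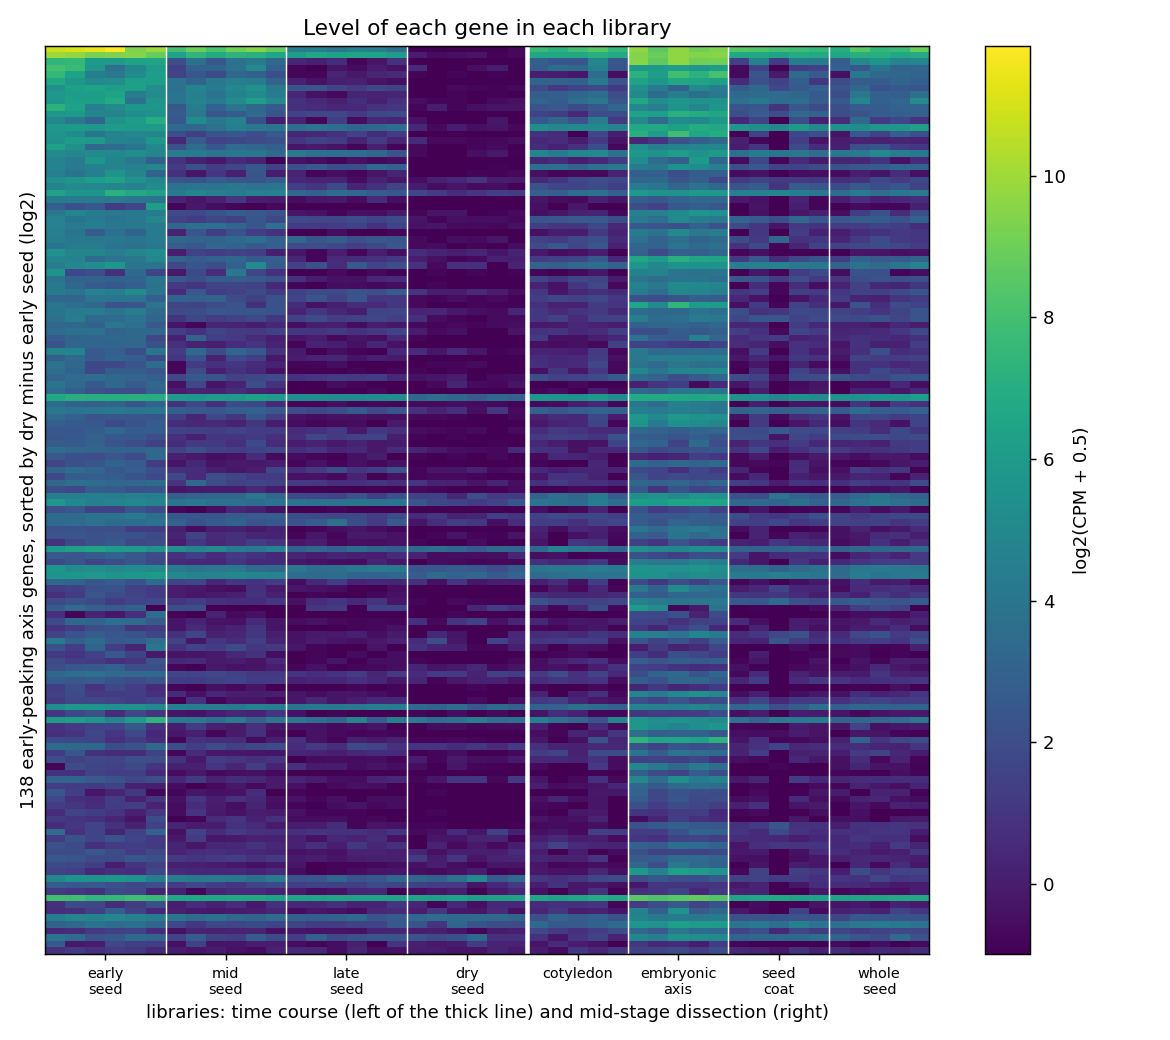
Level of each of the 138 early-peaking axis genes (rows) in each of the 44 libraries (columns), as log2(CPM + 0.5), with rows sorted by dry minus early seed. Early seed and axis are the brightest columns by the choice of genes, dry seed is the darkest, and the dark column within seed coat is library 3.

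The size of the early peak and of the axis preference varied widely among the members. On the log2(CPM + 0.5) scale, early seed exceeded mid seed by a median of 1.47 (range 0.70 to 4.63), late seed by 2.44 (0.84 to 7.18) and dry seed by 3.10 (0.99 to 11.91). Axis exceeded cotyledon by a median of 2.45 (0.72 to 6.30) and seed coat by 2.24 (0.80 to 7.09). Mid seed was the stage next to early for 116 members, late seed for 16 and dry seed for 6. Cotyledon was the part next to axis for 73 members and seed coat for 65. All early-seed libraries lay above every other time-course library for 81 of the 138 members, where 7.14% of the tested genes did so. All axis libraries lay above every cotyledon and coat library for 114 members, where 10.7% of the tested genes did so. Nothing is read from either count, since the rule used these contrasts.

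At the edges of the rule the members differed little from the genes left out. The smallest ratios of early seed to its next stage among the members were 2.0005 and 2.0015, and the nearest genes outside stood at 1.99 and 1.97. The smallest ratios of axis to its next tissue were 2.03 and 2.06, with 1.99 and 1.98 outside. The rule gave 300 genes at 1.5 times, 66 genes at 3 times, 176 with a floor of 10 and 92 with a floor of 50. Without early-seed libraries 5 and 6, left out after their values were seen, it gave 139 genes, of which 130 were among the members.

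Each condition of the rule was also met by other genes. Of all genes, 1182 met the condition on early seed and 1371 the condition on axis, so the 138 members are 11.7% of the first set and 10.1% of the second. Among the 15634 genes with at least 20 in both early seed and axis, 815 met the early condition and 862 the axis condition. Axis preference was met by 16.9% of those 815 and by 5.51% of the 15634. Of the 1182 early-peaking genes, 11.7% were axis-preferred and 35.8% coat-preferred, where 5.84% and 7.76% of all genes were. Nothing is read from these shares, since they come from the group means that the rule used. Across the members, the early-seed and axis means had a Spearman rho of 0.58 (n = 138 genes, a description), and both means are bounded below by the rule.

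The 2 most abundant members carried much of the list's signal. Sc23g0005510 and Sc05g0009340 had the highest means both in early seed and in axis. Sc23g0005510 took 36.8% of the members' counts in early seed and both genes together 49.97%, while in axis the 3 most counted members took 37.1%. Sc23g0005510 ranged from 658 to 3655 CPM in early seed with a median of 2001, and from 260.2 to 712 with a median of 460.1 in mid seed. It ranged from 13.2 to 24.9 with a median of 21.0 in late seed, and it had 2 counts in all dry-seed libraries together. Early-seed libraries 5 and 6 were its lowest early ones, at 658 and 965 CPM. Library 5 lay below mid-seed library 5 at 712 CPM, so the early and mid stages overlapped, while library 6 lay above every mid-seed library. In the dissection series it stood at 854, 391, 809, 535 and 645 CPM in the axis libraries, 199, 150, 244, 349 and 183 in cotyledon, and 352, 311, 264, 226 and 187 in coat. Every axis library lay above every cotyledon and coat library.

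Sc05g0009340 ranged from 469 to 977 CPM in early seed with a median of 668, from 85.4 to 174 with a median of 129 in mid seed, and from 65.4 to 99.4 with a median of 87.2 in late seed. In dry seed it ranged from 0.0518 to 0.536 CPM with a median of 0.219. It stood at 696, 493, 846, 696 and 735 CPM in the axis libraries, where library 2 was lowest, and its means in cotyledon, coat and whole seed were 109 ± 15, 107 ± 13 and 116 ± 17 CPM (SD, n = 5).

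Together the members took 0.655% ± 0.148 of the counts in early seed, 0.146% ± 0.030 in mid, 0.0431% ± 0.0015 in late and 0.0173% ± 0.0024 in dry seed (SD, n = 6). In the dissection series they took 0.564% ± 0.118 in axis, 0.0753% ± 0.0120 in cotyledon, 0.0945% ± 0.0078 in seed coat and 0.105% ± 0.031 in whole seed (SD, n = 5). Early-seed libraries 5 and 6 were lowest, at 0.447% and 0.493% against 0.711% to 0.799% in the other 4. Without Sc23g0005510 these 2 libraries had 0.368% and 0.374%, within the range of the other 4 at 0.363% to 0.495%, and the early-seed mean was 0.411% ± 0.063. Axis library 2 had the lowest axis share, at 0.395% against 0.538% to 0.706%. It was the lowest axis library for 71 of the 138 members, where it was lowest for 16.2% of the tested genes. Without it the rule gave 144 genes, of which 134 were among the members.

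**Figure D2:**
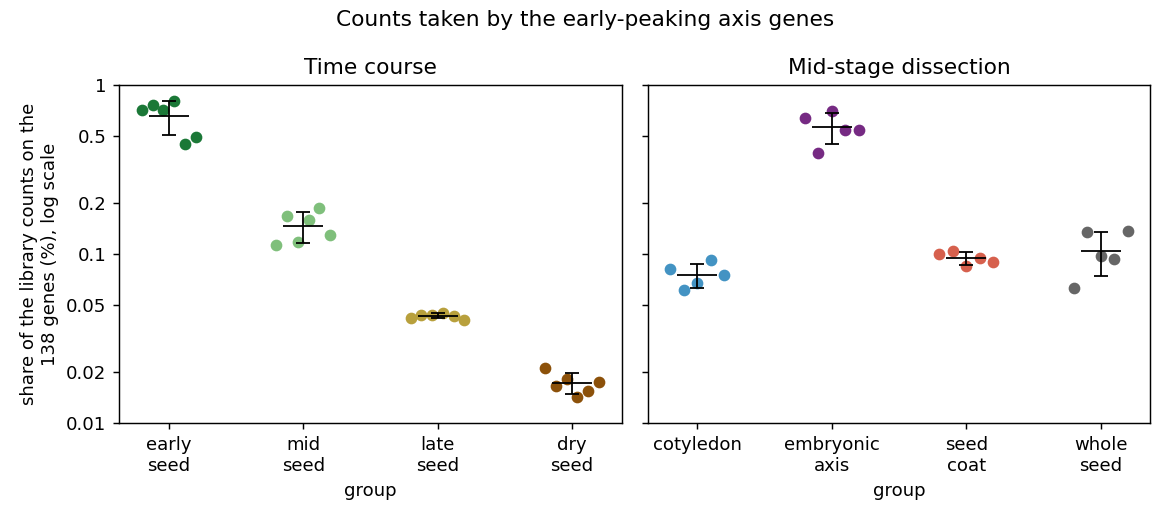
Share of each library's counts on the 138 early-peaking axis genes, in percent on a log scale, by group. Points are libraries, and bars are the mean and SD. The dry-seed libraries sit between 0.0143% and 0.0213% and the late-seed libraries between 0.0409% and 0.0450%, while the axis libraries sit above every library of the other 3 mid-stage groups.

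The first comparison that the rule did not use asks what happened to these genes between the mid and the late stage, after their peak. At an adjusted p under 0.05 in edgeR's quasi-likelihood test, 91 of the 134 members tested were lower in late than in mid seed and 2 were higher. Over all 18440 genes tested, 29.8% were lower and 27.3% higher. The median log2 change of the members was -1.56, with quartiles of -2.97 and -0.64, and that of all genes was -0.02. At least 2-fold, 80 members were lower and 1 higher, where 14.2% and 10.3% of all genes were. Of the 134 tested, 56 were called lower with no overlap between the libraries of both stages, where 19.3% of all genes were. Among those called lower, this is 56 of 91 members and 3561 of 5499 genes. The other 4 members had too few counts to be tested. Mid and late means entered the rule as upper limits relative to early seed, not relative to each other.

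The count filter used all 4 stages, so members could pass it through early seed, where they were chosen to be high, and their share called lower is no support for a fall of the list. With only these stages in the fit, the filter kept 77 members, of which 54 were called lower and 1 higher, where 31.9% and 29.8% of all 17326 genes were. Of the 54, 52 were among the 91. Without late-seed libraries 4 and 6, 86 were lower and 1 higher.

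Sc01g0000030 and Sc01g0005880 fell most from mid to late seed among the members with at least 10 CPM and no overlap. Sc01g0000030 ranged from 2.44 to 31.9 CPM in mid seed with a median of 7.98, and from 0 to 0.505 in late seed with a median of 0.222. No late-seed library reached the lowest mid-seed library, and the log2 change was -5.66 ± 0.95 (SE; edgeR adjusted p = 2.06e-05). It was also variable at its peak, from 12.6 to 267 CPM in early seed. Sc01g0005880 ranged from 14.5 to 35.2 CPM in mid seed with a median of 21.3, and from 0.136 to 0.803 in late seed with a median of 0.724, a log2 change of -5.33 ± 0.39 (SE; edgeR adjusted p = 7.14e-11).

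The 2 members that were higher in late seed, named after their values were seen, had means below 10 CPM in both stages. Sc05g0001240 went from 3.06 ± 1.44 to 5.79 ± 2.55 CPM (SD, n = 6), a log2 difference of 0.91 ± 0.28 (SE; edgeR adjusted p = 0.00757). Sc17g0005510 went from 1.08 ± 0.88 to 2.33 ± 1.21 CPM, a log2 change of 1.11 ± 0.44 (SE; edgeR adjusted p = 0.0330). The libraries of both stages overlapped for both genes. This count was 5 without mid-seed library 2 and 1 without mid-seed library 3, 4 or 5 or late-seed library 3 or 6.

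**Figure D3:**
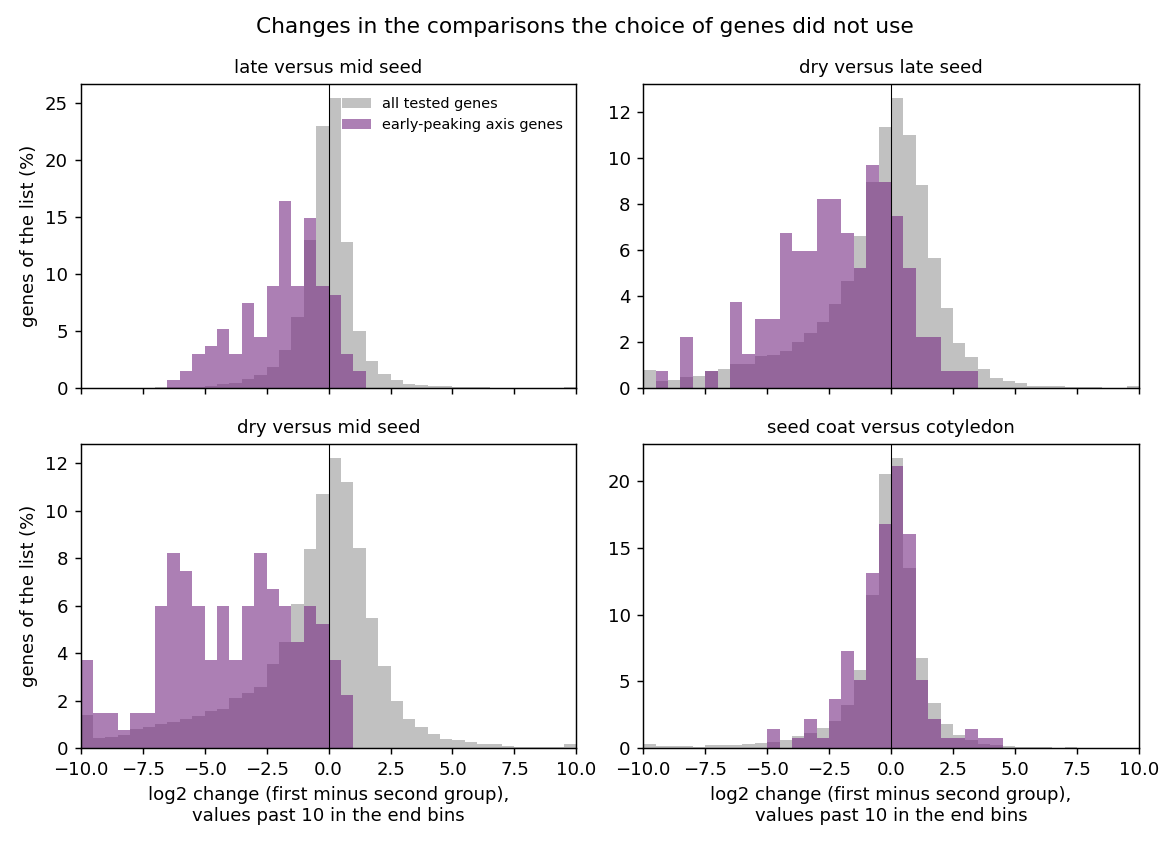
Share of genes (%) by log2 change in bins of 0.5, for the early-peaking axis genes (purple) and all tested genes (grey), in 4 comparisons. The members lie to the left of all genes in the 3 stage comparisons, with medians of -1.56, -1.99 and -3.68, and over them between seed coat and cotyledon, with a median of -0.04. With groups at 0 set at a floor of 3 counts per library, the stage medians were -1.54, -1.01 and -2.60. On the compared stages alone, 77, 50 and 83 members passed the count filter, and on coat and cotyledon alone 86 did.

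The second comparison asks which of these genes changed as late seed became dry. More members were called lower than higher. By edgeR's test 80 of the 134 tested were lower in dry than in late seed and 10 were higher, and 44 did not pass. Over all genes 43.3% were lower and 36.8% higher, so most genes changed here, and the members' share called lower was 59.7%. Only 50 of the 134 passed the count filter on late and dry seed alone, and the others passed only with early and mid seed in the fit. Of these 50, 32 were lower and 2 higher, where 40.6% and 37.4% of all 17150 genes were. At least 2-fold, 78 members were lower and 8 higher, where 32.0% and 23.1% of all genes were. Of the 134 tested, 48 were called lower without overlap of the libraries, where 33.3% of all genes were. Among those called lower, this is 48 of 80 members and 6140 of 7976 genes. The median log2 change was -1.99 for the members and -0.13 for all genes. For 27 of the members tested, late or dry seed had no count in any library. With those set at the change that a floor of 3 counts per library allows, the members' median was -1.01. In dry seed 27 of the 138 members had no count in any library and 62 had at most 3 counts in every library, in libraries of at least 15658880 counts. An absence is read only down to that depth, and for counting error only.

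Sc23g0005510 and Sc05g0009340, the most abundant members, fell most among those with at least 10 CPM and no overlap. Sc23g0005510 had 1383 counts over late seed and 2 over dry seed, both in dry-seed library 6. Relative to depth this is a ratio of 986, with 273 to 8153 as its 95% counting interval. Its fitted log2 change was -9.43 ± 0.64 (SE; edgeR adjusted p = 1.05e-12). Without dry-seed library 6 no dry-seed count was left, so the fitted change of -11.09 gives only a direction. Sc05g0009340 went from 82.9 ± 12.8 to 0.236 ± 0.172 CPM (SD, n = 6), a log2 change of -8.49 ± 0.32 (SE; edgeR adjusted p = 2.14e-17). Without late-seed libraries 4 and 6, 73 members were lower and 9 higher.

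None of the 10 members that rose into dry seed had libraries that did not overlap. Over all genes 4915 of the 6795 called higher had no overlap, which is 26.7% of those tested. As a group the 10 stood at a median of 0.212 CPM in late and 0.799 CPM in dry seed, against 6.81 CPM in early seed. Of them 2 reached 10 CPM, and they are named after their values were seen. Sc25g0004950 ranged from 4.55 to 9.45 CPM in late seed and from 5.44 to 32.0 in dry seed, where library 4 was highest (log2 change 1.05 ± 0.33, SE; edgeR adjusted p = 0.00601). It is also the member nearest to the limit on axis, at 2.03 times its next tissue. Sc13g0010560 went from 6.96 ± 1.90 to 10.1 ± 1.3 CPM (SD, n = 6), a log2 difference of 0.53 ± 0.18 (SE; edgeR adjusted p = 0.00978). With upper-quartile scaling, which moved the median change of all genes to -0.29, 7 members rose and 85 fell.

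The third comparison sets dry seed against mid seed. Nearly all called members were lower. By edgeR's test 113 of the 134 members were lower in dry than in mid seed and 1 was higher, where 43.7% and 38.1% of all genes were. Only 83 of the 134 passed the count filter on mid and dry seed alone, and the others passed only with early and late seed in the fit. Of these 83, 69 were lower and 0 higher, with 0 higher also at an unadjusted p under 0.05, where 41.4% and 37.9% of all 17555 genes were. DESeq2's test on all stages called 1 higher. At least 2-fold, 110 were lower and none higher, where 33.2% and 23.6% of all genes were. The members' median log2 change was -3.68, or -2.60 with the 26 members that had a group at 0 set at their floor, and that of all genes was -0.11. Of the 134 members, 92 were called lower without overlap and none higher, where 34.2% and 28.0% of all genes were. Among those called lower, this is 92 of 113 members and 6309 of 8065 genes. This comparison shares its libraries with both preceding ones.

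Sc23g0005510 and Sc03g0002280 had the largest fitted falls among members with at least 10 CPM and no overlap, and the rank of the latter rests on a group at 0. Sc23g0005510 had 39928 counts in mid seed and 2 in dry seed, a ratio of 22896 relative to depth (95% counting interval 6338 to 189069; edgeR adjusted p = 3.91e-16). Sc03g0002280 ranged from 8.04 to 22.3 CPM in mid seed with a median of 15.3 and was at 0 counts in each dry-seed library. With a floor of 3 counts per library, it was at least 82.1-fold lower (edgeR adjusted p = 6.66e-12). Sc05g0009340, which had counts in both stages, changed by -9.12 ± 0.33 on the log2 scale (SE; edgeR adjusted p = 5.39e-18). In late seed Sc03g0002280 was already at 0.417 ± 0.188 CPM (SD, n = 6).

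Sc04g0010130, named after its value was seen, was the member that rose above mid seed, from 2.60 ± 0.52 to 4.32 ± 2.43 CPM (SD, n = 6), a log2 difference of 0.72 ± 0.30 (SE; edgeR adjusted p = 0.0323). Its highest dry-seed library was library 3 at 8.73 CPM. The call was lost with upper-quartile scaling, with only these stages in the fit, and without dry-seed library 3 or mid-seed library 2 or 6. The count was 2 without dry-seed library 2 or 5 or mid-seed library 5.

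The other two members at 10 CPM or more in dry seed, also named after their values were seen, had means within 1.5 times of each other from mid to dry seed. Sc11g0001690 ranged from 175 to 245 CPM in early seed with a median of 226, then from 85.2 to 109 in mid, 82.4 to 93.1 in late and 70.2 to 87.8 in dry seed. Early seed did not overlap with the later stages. Between late and dry seed its log2 change of -0.10 ± 0.09 (SE) did not pass edgeR's test (adjusted p = 0.292), and between mid and dry seed its change of -0.28 ± 0.09 (SE) did (edgeR adjusted p = 0.00638). In axis it stood at 378, 302, 377, 410 and 340 CPM, against means of 102 ± 14 in cotyledon, 93.9 ± 9.5 in coat and 97.6 ± 9.7 in whole seed (SD, n = 5). Sc22g0001240 stood at 16.3 ± 5.2 CPM in mid, 16.1 ± 8.3 in late and 15.4 ± 4.2 in dry seed (SD, n = 6), and none of its 3 changes between these stages passed edgeR's test.

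**Figure D4:**
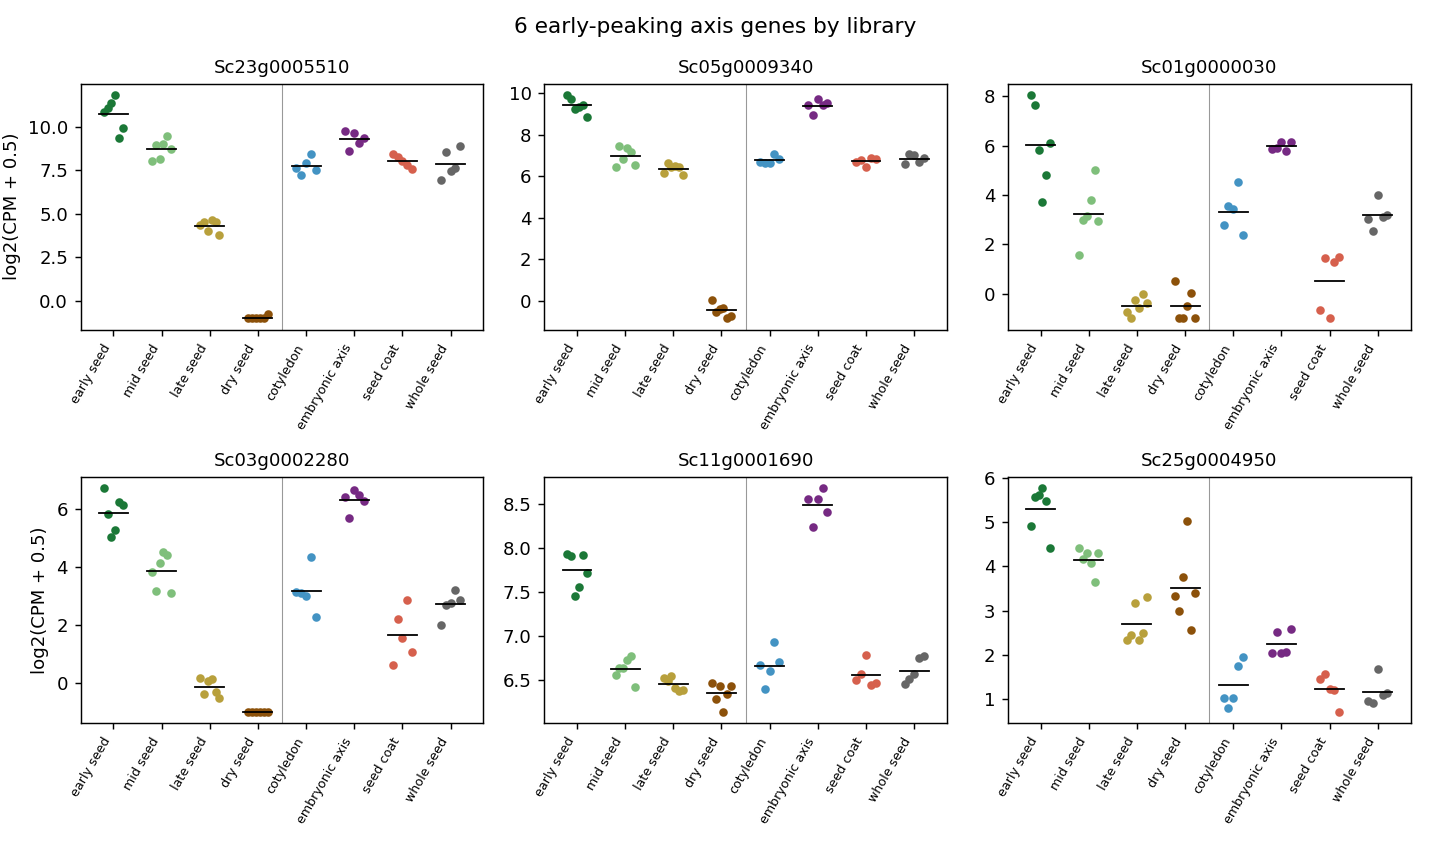
Level of 6 early-peaking axis genes as log2(CPM + 0.5), by group, with a scale of its own for each gene. Points are libraries and black lines are means of the points. Sc23g0005510, Sc05g0009340, Sc01g0000030 and Sc03g0002280 are near or at 0 counts in dry seed, while Sc11g0001690 and Sc25g0004950 are not.

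Outside the axis, at the mid stage, the members were called in both directions between coat and cotyledon. By edgeR's test 16 of the 137 members tested were higher in seed coat than in cotyledon, 21 were lower and 100 did not pass, where 28.3% of all 18499 genes were higher and 29.7% lower. The median log2 difference, coat minus cotyledon, was -0.04 for the members and -0.00 for all genes. At least 2-fold, 12 were higher and 17 lower, where 13.3% and 16.2% of all genes were. Of the 137 tested, 9 were called higher and 5 lower without overlap of the libraries, where 17.9% and 18.1% of all genes were. Among those called higher, this is 9 of 16 members and 3311 of 5228 genes. Among those called lower, it is 5 of 21 members and 3345 of 5488 genes. The rule set a ceiling on both tissues relative to axis, which also limits how far they can differ. Without cotyledon library 4 the count of members lower in coat was 12, without seed coat library 3 it was 19 (with 21 higher) and without cotyledon libraries 1 and 5 it was 26. The count filter used all 4 dissection groups, so members could pass it through axis, where they were chosen to be high. The shares called over the 137 are therefore a description. With only these tissues in the fit 86 members were tested, of which 11 were higher and 10 lower, where 24.8% and 26.2% of all 17286 genes were.

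Sc09g0005210 and Sc07g0007950 had the largest excess in coat among members with at least 10 CPM and no overlap. Sc09g0005210 stood at 23.8, 24.3, 28.8, 23.0 and 17.7 CPM in the coat libraries and at 7.28, 6.60, 12.2, 14.0 and 7.23 in cotyledon (log2 difference 1.32 ± 0.20, SE; edgeR adjusted p = 8.96e-06). Sc07g0007950 had a mean of 21.0 ± 4.5 CPM in coat and 8.77 ± 1.96 in cotyledon (SD, n = 5; log2 difference 1.26 ± 0.25, SE; edgeR adjusted p = 1.94e-04). Both were higher still in axis, at 54.0 ± 5.7 and 44.2 ± 8.0 CPM.

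Among members with at least 10 CPM and no overlap, Sc01g0000030 and Sc05g0001240 had the largest excess in cotyledon. Sc01g0000030 stood at 6.31, 11.1, 10.2, 22.5 and 4.63 CPM in cotyledon and at 0.140, 2.26, 0, 1.95 and 2.27 in coat (log2 difference -3.07 ± 0.56, SE; edgeR adjusted p = 8.72e-05). Sc05g0001240 stood at 12.5, 12.2, 8.12, 13.3 and 17.2 CPM in cotyledon and had a mean of 3.44 ± 1.11 in coat (SD, n = 5; log2 difference -1.88 ± 0.30, SE; edgeR adjusted p = 1.87e-05). Neither gene's cotyledon libraries overlapped with its coat libraries.

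The split by tissue was set beside the stages, which were measured in other libraries. Of the 16 members higher in coat, 11 were called lower in late than in mid seed and 10 lower in dry than in late seed. Of the 21 members higher in cotyledon, 20 were tested in the time course, and 9 were called lower in each of these comparisons. Of the 100 members called in neither direction, 97 were tested in the time course. Of those, 70 were called lower in late than in mid seed and 60 in dry than in late seed. Over all genes 29.8% were lower in late than in mid seed and 43.3% in dry than in late seed. The filters of both series let members pass through early seed or axis, where they were chosen to be high. The median early-seed level was 11.1 CPM for the set higher in coat, 7.44 CPM for the set higher in cotyledon and 7.29 CPM for the set not called. The differences between these sets were not tested.

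**Figure D5:**
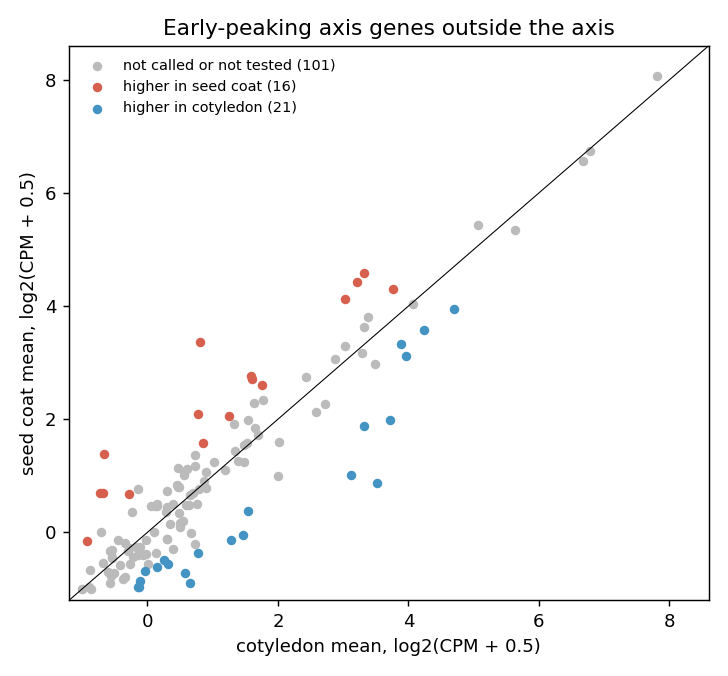
Mean level of each early-peaking axis gene in seed coat against cotyledon, as log2(CPM + 0.5), coloured by edgeR's call. The line marks equal levels, and 16 genes are called above it and 21 below it. On coat and cotyledon alone, 86 members passed the count filter.

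Seed coat library 3 lacked many members altogether. It had no count for 61 of the 138, against 8 to 19 in the other 4 coat libraries, at a total of 14939153 counts where the shallowest coat library had 11771219. Of those 61 members, 39 had a count in each of the other 4 coat libraries. They were low genes there, with a median of 0.364 CPM and none above 2.20 CPM. Over all tested genes the share with no count was 7.75% in this library and 1.84% to 2.46% in the others. Among the 1233 axis-preferred genes that are no members, 36.0% had no count in coat library 3, against 12.98% to 17.4% in the others. The share of counts on the members was still 0.0849% in this library against 0.0892% to 0.104% in the others, and Sc23g0005510 stood at 264 CPM in it. Cotyledon library 5 was the lowest cotyledon library for 62 members, where it was lowest for 36.6% of the tested genes.

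Whole seed, which the rule did not use, carried the members at a level near that of cotyledon and coat. Its mean lay between the lowest and the highest of the 3 dissected parts for 126 of the 138 members and below all of them for 12. Of the tested genes 83.6% lay between, 10.9% below and 5.53% above. No member lay above, which the rule makes unlikely through the high axis level, so nothing is read from the count between. The median log2 difference was 0.20 to cotyledon, 0.23 to coat and -2.12 to axis when counted as whole seed minus the part. Axis is high in every member by the rule, so the last value is a description. The whole-seed libraries had member shares of 0.0633%, 0.134%, 0.0972%, 0.0938% and 0.136%, and libraries 2 and 5 were highest.

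Lists of the same kind behaved as follows in the comparisons that their rules did not use. Early-peaking genes preferred in seed coat numbered 423, of which the 200 highest in early seed were taken, and early-peaking genes within 2 times among cotyledon, axis and coat numbered 151. From mid to late seed 153 of the 200 coat-list genes, 75 of the 150 tested genes without tissue bias and 91 of the 134 tested members were called lower by edgeR. The fitted median log2 changes were -1.21, -0.55 and -1.56 in the same order, and 29.8% of all tested genes were called lower. From late to dry seed 88.0%, 76.0% and 59.7% were called lower, where 43.3% of all genes were. The fitted medians were -4.37, -2.11 and -1.99. The filter on counts let members pass as described above, and only 50 of the 134 passed it on late and dry seed alone. The lists differ in abundance as well as in tissue, and the differences between them were not tested.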

How the data were processed

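Per the labels, RNA came from a hot-borate extraction and libraries from a stranded mRNA kit. Per the submitters' processing notes, tools included Trimmomatic, STAR and DESeq2. Counting tool, genome build and use of strand: not given in the sources used here. As values the authors deposited whole-number read counts per gene and normalized values, used as a signal. Tested on the files, each normalized value is the deposited count divided by 1 factor per library (largest relative deviation 1.10e-09). Members were found on the normalized tables, and all tests used the counts.

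Each series was fitted with all 4 groups by edgeR 4.0.16 (R 4.3.3): TMM, filterByExpr, glmQLFit and glmQLFTest, with Benjamini-Hochberg adjustment over all 18440 or 18499 genes tested and a threshold of 0.05. The filter kept 134 members over the stages and 137 over the tissues. Each SE of a log2 change is the size of the fitted change divided by the square root of the F statistic of edgeR's test, which gives no SE itself. DESeq2 1.42.0 was an alternative. The procedure was tested on simulated counts, with changes only in genes above a minimum mean level and the same spread for every gene. That test does not cover genes below this level. Figures and summaries used Python 3.11.15, numpy 2.4.6, pandas 2.3.3, scipy 1.17.1 and matplotlib 3.10.9.

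Named genes are the 2 highest in early seed and in axis, and in each comparison up to 2 rises and 2 falls, the largest with adjusted p under 0.05, no overlap and a higher group at 10 CPM or more; others are said to be named after their values were seen. The members and lists were chosen with earlier results of these data known. Near-identical copies may share reads, and antisense overlap adds reads if strand was not used, so single genes are uncertain to that extent. Intervals and floors cover counting error only. Replicate libraries all differed by more than sampling noise, with 8.50 as the lowest chi-square per degree of freedom. Depth is given with the results. Alternatives were DESeq2, other scalings, no filter, only the groups compared, the replicate block and libraries left out.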

Additional observations from a re-analysis of the deposited data

Results flagged for a closer look

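In 80 groups of 5 or 6 libraries, the shares, the numbers of members with no count and the levels of the named genes were examined for a library far from the rest, and 7 stood out. For normally spread values chance gives about 1 in 20, which was not tested for values of 0 or a few counts. Seed coat library 3 had no count for 61 members, against 8 to 19 in the other coat libraries. Cotyledon library 4 had 19.5 CPM of Sc03g0002280, against 4.29 to 8.20 in the others. Mid-seed library 5 had 35.5 CPM of Sc07g0007950, against 2.86 to 7.10. Axis library 2 had 30.4 CPM of the same gene, Sc07g0007950, against 46.2 to 51.2. The other 3 rest on 0 or a few counts. Dry-seed library 6 had 0.101 CPM of Sc23g0005510 and dry-seed library 5 had 0.0518 CPM of Sc05g0001240, where the rest of dry seed had none. Early-seed library 6 had 1 member with no count, where every other early-seed library had a count for each member. Causes were not tested.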

How the results depend on the processing

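The counts of members called lower between stages kept within 1.5 times of the reported value under DESeq2's Wald test, both other scalings, no filter, the replicate block and each library left out. They were 80 to 96 for late against mid seed, 73 to 85 for dry against late seed and 113 to 118 for dry against mid seed, the counts without late-seed libraries 4 and 6 included where they apply. With only the 2 groups compared, fewer members passed the count filter, and the counts were 54 lower and 1 higher (late against mid), 32 and 2 (dry against late), 69 and 0 (dry against mid, with 0 also at an unadjusted p under 0.05 by edgeR, and 1 by DESeq2's test on all 4 stages), and 10 lower in coat than in cotyledon. The count of members higher in late seed was 1 without late-seed libraries 4 and 6 and 1 to 5 with a library left out. The count higher in dry than in mid seed was 0 with upper-quartile scaling by edgeR (0 also at an unadjusted p under 0.05, and 1 by DESeq2's test with its own size factors) and 0 to 2 with a library left out. The count lower in coat than in cotyledon was 12 to 23 with a library left out, and the cause was not tested.

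The rule gave 300 genes at 1.5 times, 66 at 3 times, 128 on TMM-scaled values and 132 to 147 with a library left out. With Sc23g0005510 left out, the shares of counts were 0.411% in early, 0.0978% in mid and 0.0413% in late seed, and 0.0559% in cotyledon and 0.0666% in coat. The genes named by the stated rule, not those named after their values were seen, kept their direction and their call under every alternative that gave them an adjusted p.

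The titles do not say whether libraries with the same replicate number are paired. Deviations of libraries with the same number correlated at -0.11 to 0.11 over genes, which cannot show whether they are. With the replicate number as a block, 87 members were lower in late than in mid seed, 80 in dry than in late seed, 114 in dry than in mid seed and 16 in coat than in cotyledon. Depth limits the members most in dry seed, where 62 of 138 had at most 3 counts in every library, so that the size of their fall is not known beyond that floor.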

Other observations

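The members were spread over the identifier series. They carried 26 of the 27 prefixes that the gene identifiers have, with 1 to 12 members on a prefix. The prefix with 12 held 8.70% of the members and 5.05% of all genes. In 4 cases a member stood next to another member in the order of the files, and reads of such neighbours may be shared if they are near-identical copies. The titles give the mid stage both for mid seed of the time course and for whole seed of the dissection series, and call only the latter whole seed. The members' mean levels in these 2 groups had a Spearman rho of 0.81 (n = 138 genes, a description across separately scaled tables).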
